A study of Homo sapiens with 6 samples.

Results

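The genes described here are 2 feedback inhibitors of NF-kB, NFKBIA and TNFAIP3, and 7 genes for secreted cytokines and chemokines that NF-kB can switch on: IL6, LIF, IL1A, IL1B, CXCL1, CXCL2 and CXCL3. They were chosen by name, as every deposited transcript whose gene symbol is one of these 9, which gave 13 of 51398 RefSeq isoforms and 9 of 26334 genes. RNA-Seq was available from PC-9 cells, a human line derived from an EGFR-mutant lung adenocarcinoma. The cells carried a scrambled shRNA (shScr, the control) or an shRNA against the splicing factor RBM10 (shRBM10#1 or shRBM10#2), with 2 libraries per condition and 6 in all. All cells were grown in RPMI with 10% FBS, and the labels give their treatment as none. The labels were followed in taking shScr as the control, although the methods text speaks of parental cells. The labels do not say whether libraries of a condition came from separate cultures, so the tests measure only the spread between these libraries.

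NF-kB dimers are held in the cytoplasm by IkB proteins until the IKK complex marks IkB for degradation, after which the dimers enter the nucleus and bind kB sites in DNA. NFKBIA encodes IkBalpha and TNFAIP3 encodes the ubiquitin-editing enzyme A20. Both are NF-kB targets that shut the pathway off again. IL1A and IL1B encode the ligands of the IL-1 receptor, itself an activator of NF-kB. IL6 and LIF encode cytokines that signal through gp130 to STAT3. CXCL1, CXCL2 and CXCL3 encode closely related chemokines that attract neutrophils through CXCR2. Tumor cells can make all of these, and their mRNAs are typically short-lived.

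The kB-type sites of the promoters are shown first, because they are the DNA letters that NF-kB recognizes. Promoter windows from RefSeq (GRCh38.p14), reaching from 250 bases before to 50 bases after a start site, were matched by symbol for 8 of the 9 genes. LIF was not matched. The motif searched on both strands was GGGNNTTTCC, chosen after these promoters had been read. It was found in the windows of 6 of the 8 genes, against 671 of all 35116 windows (1.91%). The following 30-base stretches run 5′ to 3′ on the strand that reads as the motif, with the motif in capitals.
NFKBIA (chr14:35404811-35404840, plus strand): gtcaggctcgGGGAATTTCCaagccagtca
TNFAIP3, first site (chr6:137867182-137867211, minus strand): ggatttccacGGGACTTTCCaaagtcacgt
TNFAIP3, other site (chr6:137867194-137867223, minus strand): ttgtaggcccGGGGATTTCCacgggacttt
IL6 (chr7:22727117-22727146, plus strand): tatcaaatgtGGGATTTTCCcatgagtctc
CXCL1 (chr4:73869304-73869333, plus strand): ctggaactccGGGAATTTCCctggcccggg
CXCL2 (chr4:74099254-74099283, minus strand): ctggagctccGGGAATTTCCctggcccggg
CXCL3 (chr4:74038749-74038778, minus strand): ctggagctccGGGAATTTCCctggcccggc
The centers of these sites lay 50 to 76 bases upstream of the start site. NFKBIA and the 3 chemokine genes carried the same 10 letters. The stretches of CXCL1 and CXCL2 differed at 1 of 30 bases, those of CXCL2 and CXCL3 at 1, and those of CXCL1 and CXCL3 at 2. The 2 stretches of TNFAIP3 overlap. The windows of IL1A and IL1B held neither this motif nor the broader kB consensus decamer. The broader decamer was in 3956 of the 35116 windows (11.3%) and in those of the same 6 genes. A match is a description of letters and does not show binding, and sites outside these windows were not searched.

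Libraries held 31953729 to 37557507 expected counts, the read counts per isoform that RSEM estimates. TPM scales them by effective length and library size and was used to compare levels between genes. RBM10 was 38.52 and 45.72 TPM in shScr, 28.42 and 25.82 TPM under shRBM10#1 and 13.13 and 12.79 TPM under shRBM10#2. Its log2 fold change (log2 FC) was -0.54 with shRBM10#1 (FDR = 0.000228) and -1.65 with shRBM10#2 (FDR = 5.1e-08), so the KD was deeper with shRBM10#2. One library, shScr 2, stood apart in its mean fragment length, 231 nt against 265 to 281 nt in the others. All 6 epithelial markers were high (summed level 22790 to 28963 TPM). Of 7 leukocyte markers, PTPRC was at most 0.05 TPM and CD3E at most 0.11 TPM, and CD68 made up nearly all of their summed level (101 and 118 TPM in shScr, 78.4 to 82.5 TPM with RBM10 KD). CD68 was called lower with both shRNAs (edgeR, log2 FC -0.33, FDR = 0.00411, and -0.42, FDR = 0.000788). ITGAM was at most 0.07 TPM, LYZ 0.28 TPM, CD14 0.75 TPM and CSF1R 0.82 TPM. Which cells carried the CD68 mRNA, and their part in the results below, was not tested. In bulk RNA, fewer cells that express a gene and less RNA per cell cannot be told apart.

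In the control cells, NFKBIA was the most abundant of the 9 mRNAs, with 43.8 ± 1.45 TPM (mean ± SD, n = 2 libraries). That mean was above those of 88.2% of the 26334 genes. LIF followed with 13.9 ± 1.36 TPM (n = 2), above 74.4% of genes. IL1B had 1.36 ± 0.12 TPM, TNFAIP3 1.34 ± 0.297 TPM and CXCL1 1.09 ± 0.424 TPM (n = 2 each). The libraries of these 3 genes overlapped, so their order is not resolved. CXCL2 came next with 0.39 ± 0.113 TPM (n = 2). IL1A, CXCL3 and IL6 stood last at 0.14, 0.105 and 0.025 TPM, levels that rest on 8, 2 and at most 1 counts per shScr library. A count of 0 allows up to 3 counts, which corresponds to 0.0799 to 0.0939 CPM (counts scaled to library size) in these libraries. After a filter on low counts, 6 of the 9 genes were tested: NFKBIA, TNFAIP3, LIF, IL1B, CXCL1 and CXCL2.

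**Figure D1:**
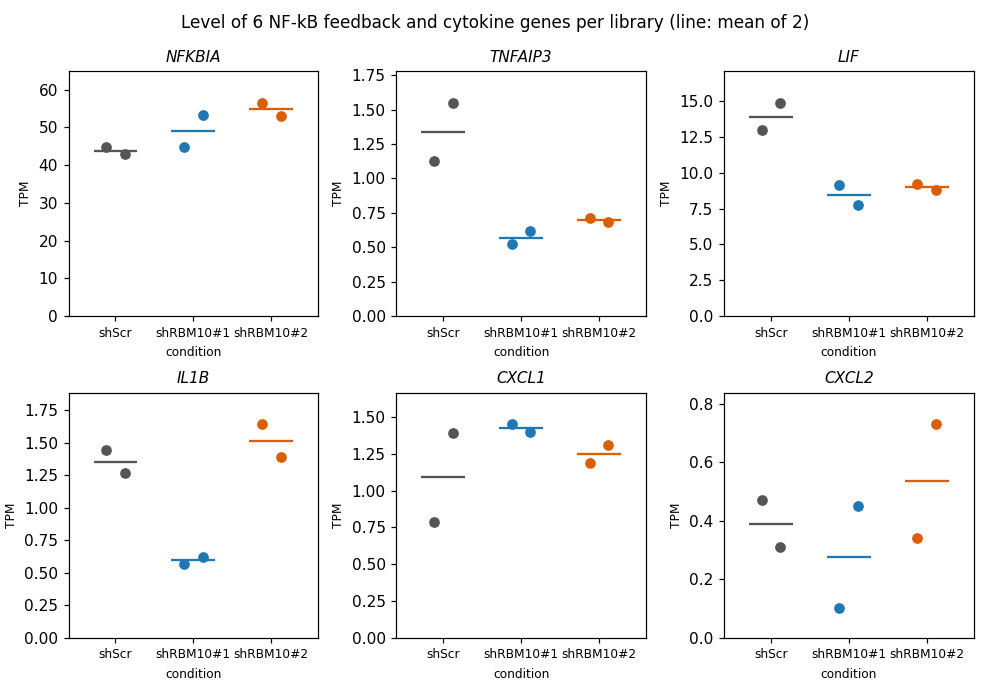
Level in TPM (vertical axes, from 0) of NFKBIA, TNFAIP3, LIF, IL1B, CXCL1 and CXCL2 in each library by condition (horizontal axes). Points are libraries and lines are means of 2. TNFAIP3 and LIF were below both shScr libraries in all 4 RBM10 KD libraries, and IL1B was low in the 2 shRBM10#1 libraries alone.

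The 2 feedback inhibitors moved in opposite directions with shRBM10#2, and TNFAIP3 fell with shRBM10#1 as well. NFKBIA was 44.87 and 42.82 TPM in shScr, 44.79 and 53.30 TPM under shRBM10#1 and 56.53 and 53.07 TPM under shRBM10#2. Both shRBM10#2 libraries were above both control libraries, whereas 1 shRBM10#1 library lay between them. NFKBIA rose with shRBM10#2 by a log2 FC of 0.37 (SE 0.102, FDR = 0.019, edgeR quasi-likelihood test), a fold of 1.29. With shRBM10#1 its log2 FC was 0.25 (SE 0.102, FDR = 0.134). The shRBM10#2 call was lost without shScr 2 (log2 FC 0.26, FDR = 0.156), without shRBM10#2 library 1 (FDR = 0.132) and without library 2 (FDR = 0.0799). The shRBM10#1 value passed the threshold without shRBM10#1 library 1 (FDR = 0.0152), and without the filter on low counts (FDR = 0.0379), so the call with shRBM10#1 turns on these choices.

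TNFAIP3 fell with both shRNAs. It had 1.13 and 1.55 TPM in shScr, 0.52 and 0.62 TPM under shRBM10#1 and 0.71 and 0.68 TPM under shRBM10#2. Every RBM10 KD library was below both control libraries. The log2 FC was -1.11 with shRBM10#1 (SE 0.206, FDR = 0.00331) and -0.87 with shRBM10#2 (SE 0.199, FDR = 0.00756), or folds of 0.462 and 0.545. These values rest on 114 and 139 expected counts in shScr and 50 to 80 in the KD libraries. The call held with shRBM10#1 whichever library was left out. With shRBM10#2 it was lost without shScr 2 (FDR = 0.0641), without shRBM10#2 library 1 (FDR = 0.0535) and without library 2 (FDR = 0.0776).

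LIF, the gp130 cytokine known for holding cells in an undifferentiated state, fell with both shRNAs and had the smallest standard errors of the 6 tested genes. It had 12.96 and 14.89 TPM in shScr, 9.18 and 7.77 TPM under shRBM10#1 and 9.23 and 8.81 TPM under shRBM10#2. The KD libraries did not overlap the controls. The log2 FC was -0.63 with shRBM10#1 (SE 0.0831, FDR = 0.000361) and -0.56 with shRBM10#2 (SE 0.0822, FDR = 0.000699), or folds of 0.646 and 0.676. Both calls held at an FDR below 0.05 with each of the 6 libraries left out in turn. With 723 to 1108 expected counts per library, LIF was also the deepest of the cytokine genes.

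IL6, the name-giving member of the same family, had 1 and 0 expected counts in shScr, 1 and 1 with shRBM10#1 and 0 and 0 with shRBM10#2. It was at or under the floor of 3 counts in every library, and no difference was detectable at this depth. The plot of expected counts shows that the counts in all conditions were 1 or 0.

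IL1B, which encodes the secreted IL-1 ligand, was low with shRBM10#1 alone. It had 1.44 and 1.27 TPM in shScr, 0.57 and 0.62 TPM under shRBM10#1 and 1.64 and 1.39 TPM under shRBM10#2. The shRBM10#1 libraries stood below the other 4, which overlapped each other. IL1B fell with shRBM10#1 by 1.10 on the log2 scale (SE 0.339, FDR = 0.0482, fold 0.467) and under shRBM10#2 its log2 FC was 0.21 (SE 0.295, FDR = 0.647). This fall sits close to the threshold and rests on 40 and 32 counts in shScr against 15 and 20. It was not called by DESeq2 (FDR = 0.13), by edgeR on the compared conditions alone (FDR = 0.0773), with an offset for effective length (FDR = 0.0588) or with any 1 of the 6 libraries left out (FDR from 0.0865 to 0.197). The direct test of shRBM10#2 against shRBM10#1 gave a log2 FC of 1.31 (SE 0.328, 95% interval 0.595 to 2.02, FDR = 0.0121), a fold of 2.47. That difference was not called without shRBM10#1 library 1 (FDR = 0.054), without shRBM10#2 library 1 (FDR = 0.105) or without shRBM10#2 library 2 (FDR = 0.0604).

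IL1A, which encodes the IL-1 ligand that also acts inside the cell and at its surface, did not pass the filter on low counts (without the filter, FDR = 0.165 with shRBM10#1 and 0.458 with shRBM10#2 by edgeR). It had 8 and 8 expected counts in shScr, 2 and 1 with shRBM10#1 and 4 and 4 with shRBM10#2. Summed over libraries and scaled by depth, the ratio to shScr was 0.178 with shRBM10#1 (3 against 16 counts, 95% exact binomial interval 0.0332 to 0.62) and 0.445 with shRBM10#2 (8 against 16 counts, interval 0.165 to 1.1). The intervals cover counting error only and take no account of the spread between libraries. Every KD library had fewer IL1A counts than either control library, and the second interval includes a ratio of 1.

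**Figure D2:**
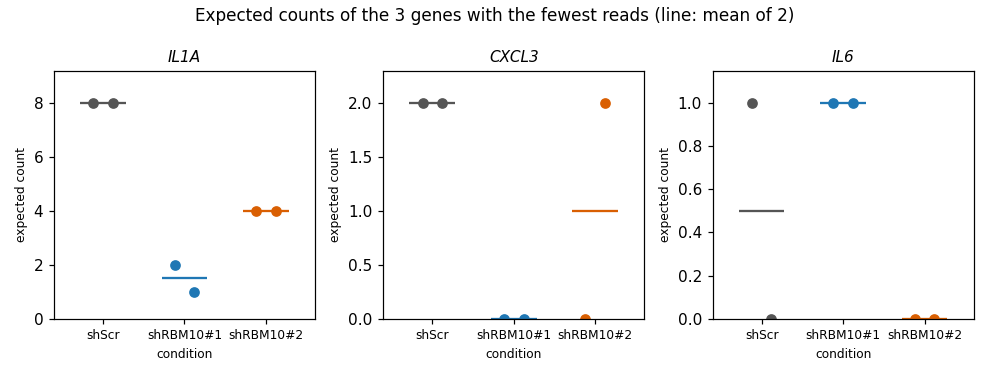
Expected counts (vertical axes, from 0) of IL1A, CXCL3 and IL6 in each library by condition (horizontal axes). Points are libraries, drawn side by side, and lines are means of 2. IL1A had 8 counts in each shScr library and 1 to 4 in the KD libraries, and CXCL3 and IL6 never exceeded 2 counts.

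The 3 chemokine genes showed no called difference. CXCL1 had 0.79 and 1.39 TPM in shScr, 1.45 and 1.40 TPM under shRBM10#1 and 1.19 and 1.31 TPM under shRBM10#2. The control libraries spanned more than the KD libraries did. The log2 FC of CXCL1 was 0.48 with shRBM10#1 (SE 0.359, FDR = 0.418, 95% interval -0.3 to 1.26) and 0.26 with shRBM10#2 (SE 0.362, FDR = 0.643, interval -0.525 to 1.04). CXCL2 had 0.47 and 0.31 TPM in shScr, 0.10 and 0.45 TPM under shRBM10#1 and 0.34 and 0.73 TPM under shRBM10#2. All 3 conditions overlapped, and the counts ran from 2 to 18 per library. Its log2 FC was -0.37 with shRBM10#1 (95% interval -1.97 to 1.24, FDR = 0.792) and 0.48 with shRBM10#2 (interval -0.932 to 1.9, FDR = 0.63), so changes larger than 2-fold are inside both intervals. CXCL3 had 2 and 2 expected counts in shScr, 0 and 0 with shRBM10#1 and 0 and 2 with shRBM10#2, which is at or under the floor of 3 counts.

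Because these 3 genes are neighbors on chromosome 4 and near-identical in part, reads could have been split between them. Of all 50-base words of their GENCODE 29 transcripts, 5.73% of those of CXCL1, 9.24% of those of CXCL2 and 5.26% of those of CXCL3 also occurred in another of the 3. Their expected counts were whole numbers in every library. Summed as 1 gene and tested in the fit across all genes, the 3 gave 0.19 (log2 FC, SE 0.321, FDR = 0.748) under shRBM10#1 and 0.26 (SE 0.315, FDR = 0.583) under shRBM10#2.

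Of the 6 tested genes, 3 were called with shRBM10#1 (TNFAIP3, LIF and IL1B), where 14.0% of all 14217 tested genes were called. All 3 were lower, against 6.91% of all genes called lower. With shRBM10#2, 3 were called (TNFAIP3 and LIF lower, NFKBIA higher) against 25.9% of all genes, of which 2 were lower against 13.9% of all genes. Because so many genes were called with shRBM10#2, and only 6 of the 9 genes were tested, these counts describe single genes and not a property of the group. Over the 4 RBM10 KD libraries as 1 group against shScr, TNFAIP3 (log2 FC -0.99, SE 0.186, FDR = 0.0416) and LIF (log2 FC -0.60, SE 0.0859, FDR = 0.0195) were called, 2 of 6 against 1.62% of all genes. This fit counts the difference between the shRNAs as spread, and RBM10 itself was not called in it. With 1 coefficient per condition, 3 of the 6 and 2610 of all 14217 genes were called, so the 1.62% depends on the fit. In the pooled fit NFKBIA was at 0.31 (log2 FC, FDR = 0.213, and 0.0311 with 1 coefficient per condition) and IL1B at -0.29 (FDR = 0.784). Neither pooled call held without either shScr library, where no gene at all was called by edgeR and 1383 or 1216 genes had an unadjusted p below 0.05. TNFAIP3 was also not called with shRBM10#1 library 2 (FDR = 0.0773), shRBM10#2 library 1 (FDR = 0.0507) or shRBM10#2 library 2 (FDR = 0.0513) left out.

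Between the shRNAs, IL1B was the 1 tested gene of 6 with a called difference, against 25.5% of all genes. For the other genes the difference of shRBM10#2 from shRBM10#1 is known only within its interval. It was 0.24 for TNFAIP3 (95% interval -0.228 to 0.708, FDR = 0.446), 0.07 for LIF (interval -0.116 to 0.248, FDR = 0.603) and 0.12 for NFKBIA (interval -0.0942 to 0.34, FDR = 0.396), all as log2 FC. RBM10 itself was lower with shRBM10#2 than with shRBM10#1, by a log2 FC of -1.11 (FDR = 3.65e-06), while IL1B was lower with shRBM10#1. The comparisons of the 2 shRNAs with shScr share the control libraries, so their values are given side by side.

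**Figure D3:**
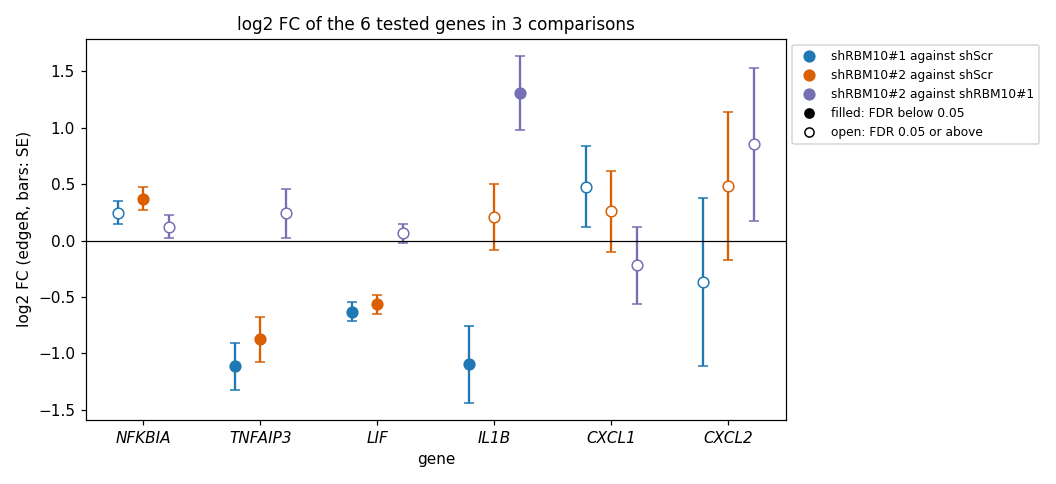
log2 FC (vertical axis) of the 6 tested genes (horizontal axis) for shRBM10#1 against shScr, shRBM10#2 against shScr and shRBM10#2 against shRBM10#1. Bars are SE derived from the edgeR test statistic, and filled points have an FDR below 0.05. TNFAIP3 and LIF lie below 0 with both shRNAs, IL1B falls with shRBM10#1 alone and the bars of CXCL1 and CXCL2 are wide.

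RBM10 acts on splicing, and the deposited isoforms of these genes were therefore read as well, as a description with no test. NFKBIA, IL6, IL1A, IL1B, CXCL2 and CXCL3 had 1 isoform each, and the noncoding isoform of CXCL1 had 0 counts in every library. LIF has a pair of isoforms. NM_001257135 had 0 and 0 expected counts in shScr, 151 and 42.7 with shRBM10#1 and 0 and 46.6 with shRBM10#2, that is 0% to 21.8% of LIF. It was listed at 0 in both control libraries and also in 1 KD library. The main isoform NM_002309 alone had 1092 and 1108 expected counts in shScr, 572 and 709 with shRBM10#1 and 865 and 804 with shRBM10#2, with no overlap between KD and control. RSEM assigned TNFAIP3 to its 3 isoforms unevenly between libraries of the same condition. In shRBM10#1 library 1 all 50 counts went to NM_001270508, and in library 2 all 72 went to NM_006290. These isoforms are 4690 to 4738 nt long, and the share of each differed between replicates by up to the whole gene, so nothing is read from it here.

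**Figure D4:**
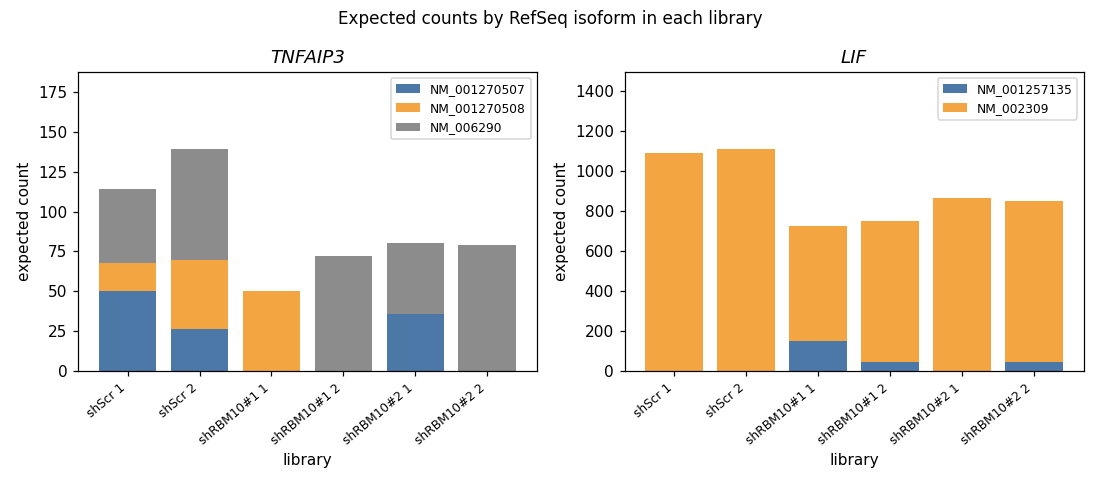
Expected counts (vertical axes, from 0) of TNFAIP3 and LIF in each library (horizontal axes), stacked by RefSeq isoform. The total of each bar is the gene's count. The total fell in all 4 KD libraries for both genes, and the split of TNFAIP3 by isoform differed between replicates.

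Several of these mRNAs are known targets of proteins that bind AU-rich elements and speed mRNA decay. In the 3′ UTR of the most abundant matched isoform (GENCODE 29), all 9 genes had more ATTTA pentamers per kb than the median of 17733 genes, which was 1.41. Values ran from 2.18 per kb in LIF and 2.51 per kb in TNFAIP3 to 13.8 in CXCL2 and 13.9 in IL6. The nonamer TTATTTATT was in 6 of the 9 (TNFAIP3, LIF, IL1B, CXCL1, CXCL2 and CXCL3), against 1278 of the 17733 genes (7.21%). CXCL2 had 5 copies and CXCL1 had 3. A list of 11 genes for mRNA decay and stability factors was read as well, and it was not limited to proteins that bind AU-rich elements. Among the 11, 0 were called with shRBM10#1 by edgeR, against 14.0% of all genes (4 at an unadjusted p below 0.05, and 0 by DESeq2). With shRBM10#2, 2 were called higher and 2 lower, against 25.9%. Over the alternatives run, 0 were called with shRBM10#1 and 0 to 3 in each direction with shRBM10#2.

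Other genes of the pathway were read from lists, which were chosen with earlier results of these data known. The counts and medians of a list therefore describe its single genes and are not a test of the pathway. Of the 5 NF-kB subunit genes, all tested, 2 were lower with shRBM10#1, against 6.91% of all genes, and 3 with shRBM10#2, against 13.9%, and none was higher. Their median log2 FC was -0.073 and -0.249, against 0.00794 and 0.00539 over all genes. RELB, the partner of the p52 subunit in noncanonical signaling, was 6.39 and 7.47 TPM in shScr, 4.75 and 4.57 TPM under shRBM10#1 and 5.22 and 4.43 TPM under shRBM10#2 (log2 FC -0.48, FDR = 0.0234, and -0.46, FDR = 0.0167). Its call with shRBM10#1 was lost without shScr 1 (FDR = 0.0671), shScr 2 (FDR = 0.111) or shRBM10#1 library 2 (FDR = 0.0747), and by DESeq2 (FDR = 0.0532). That with shRBM10#2 was lost without shScr 1 (FDR = 0.056), shScr 2 (FDR = 0.073) or shRBM10#2 library 2 (FDR = 0.198). NFKB2, which encodes p52 and its precursor, fell with both as well (log2 FC -0.34, FDR = 0.00824, and -0.39, FDR = 0.00256), a call lost with shRBM10#1 without shScr 1 (FDR = 0.0588) and with shRBM10#2 without its library 2 (FDR = 0.0534). RELA, the main activating subunit of the canonical pathway, had a log2 FC of 0.01 with shRBM10#1 (FDR = 0.93) and -0.14 with shRBM10#2 (FDR = 0.153). The counts of lower subunit genes ranged from 0 to 2 and from 0 to 3 over the alternatives.

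Of 23 genes of the IKK complex and the signaling upstream of it, 0 were higher and 3 lower with shRBM10#1, and 1 was higher and 7 were lower with shRBM10#2, where 6.91% and 13.9% of all genes were lower. Their median log2 FC was -0.119 and -0.131. Called lower with both were IRAK1, a kinase downstream of the IL-1 receptor (log2 FC -0.32, FDR = 0.0147, and -0.56, FDR = 0.000542), and MAP3K14, the NIK kinase of the noncanonical pathway (log2 FC -0.23, FDR = 0.0418, and -0.39, FDR = 0.00214). IRAK1 lost its call with shRBM10#1 without shScr 2 (FDR = 0.118) or shRBM10#1 library 2 (FDR = 0.084). MAP3K14 lost its call with shRBM10#1 in 10 of 15 alternatives, 5 of them with 1 library left out (every library but shRBM10#1 library 1, FDR up to 0.146). With shRBM10#2 it lost its call without shRBM10#2 library 2 (FDR = 0.0579). The third gene lower with shRBM10#1 was BIRC3, which encodes cIAP2. The counts of lower genes ranged from 0 to 4 and from 0 to 10 over the alternatives. Of 13 other inhibitors and feedback regulators, 12 were tested. With shRBM10#1, 1 was higher, against 1014 of all 14217 tested genes. With shRBM10#2, 1 was higher and 2 were lower, against 1708 and 1977 of all tested genes. Of 17 receptors and antagonists, 13 were tested, with 4 lower with shRBM10#1, against 6.91% of all genes. With shRBM10#2, 0 were called by edgeR, against 25.9% of all genes (6 at an unadjusted p below 0.05, and 0 by DESeq2). IL1RN, the antagonist that competes with both IL-1 ligands for their receptor, was 3.48 and 4.43 TPM in shScr, 1.77 and 1.93 TPM under shRBM10#1 and 2.75 and 2.76 TPM under shRBM10#2. It fell with shRBM10#1 (fold 0.498, FDR = 0.00396), and its log2 FC with shRBM10#2 was -0.46 (FDR = 0.0826). The receptor for the 3 chemokines, CXCR2, was at most 0.06 TPM in all 6 libraries.

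Of 21 other cytokines and chemokines that NF-kB can induce, 6 were tested. With shRBM10#1, 3 were lower, against 6.91% of all genes, and with shRBM10#2, 1 was lower, against 13.9%. With so few tested, these counts describe single genes. IL11, a gp130 cytokine like LIF and IL6, was 7.74 and 9.10 TPM in shScr, 1.85 and 1.36 TPM under shRBM10#1 and 3.56 and 3.80 TPM under shRBM10#2. It fell with both (log2 FC -2.31, SE 0.153, FDR = 2.96e-06, and -1.13, SE 0.136, FDR = 0.000261), further than any of the 6 tested genes above. CXCL8, which encodes a neutrophil chemokine of the same family as CXCL1, was 6.58 and 6.99 TPM in shScr, 2.27 and 2.53 TPM under shRBM10#1 and 7.28 and 6.23 TPM under shRBM10#2. Like IL1B it was low with shRBM10#1 alone (log2 FC -1.41, SE 0.161, FDR = 0.000136, against 0.05, FDR = 0.842), and the direct test between the shRNAs gave 1.45 (FDR = 0.000146). The sign of the value with shRBM10#2 turned in 2 of 15 alternatives.

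Of 19 other target genes, 17 were tested. With shRBM10#1, 1 was higher and 3 were lower, against 1014 higher and 982 (6.91%) lower of all 14217 tested genes. With shRBM10#2, 0 were higher and 2 lower, against 1708 higher and 1977 (13.9%) lower. Complement C3 fell with both (log2 FC -0.93, FDR = 2.29e-05, and -0.80, FDR = 9.2e-05), as did PLAU, the urokinase plasminogen activator (log2 FC -1.03, FDR = 1.45e-05, and -0.40, FDR = 0.0039). The PLAU call with shRBM10#2 was lost without its library 2 (FDR = 0.0791). ICAM1, an adhesion molecule and the other of the 3 lower genes, and BIRC3, from the list of upstream genes, were picked after their values were seen. Both were called lower with shRBM10#1 (log2 FC -0.68, FDR = 0.000131, and -0.87, FDR = 0.00448) and not with shRBM10#2 (log2 FC -0.06, FDR = 0.628, and -0.29, FDR = 0.204). BIRC3 was not called with shRBM10#1 without shScr 2 (FDR = 0.0642). The test between the shRNAs gave 0.63 (FDR = 0.000287) for ICAM1 and 0.58 (FDR = 0.0258) for BIRC3. Of 12 interferon-stimulated genes, 9 were tested. Among them, 2 were higher with shRBM10#1, against 1014 of all 14217 tested genes, and 1 with shRBM10#2, against 1708. OAS2 rose with both (edgeR, FDR = 0.00101 and 0.027), from 0.02 and 0.03 TPM in shScr to 0.35 and 0.50 TPM and to 0.16 and 0.15 TPM. These levels rest on 1 and 2 expected counts in shScr, under the floor of 3, 21 and 39 with shRBM10#1 and 10 and 12 with shRBM10#2. DESeq2 gave OAS2 no adjusted p with shRBM10#2 (unadjusted p = 0.0133). Its call with shRBM10#2 was lost without either shScr library (FDR = 0.149 and 0.0845) or either shRBM10#2 library (FDR = 0.0926 and 0.138).

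**Figure D5:**
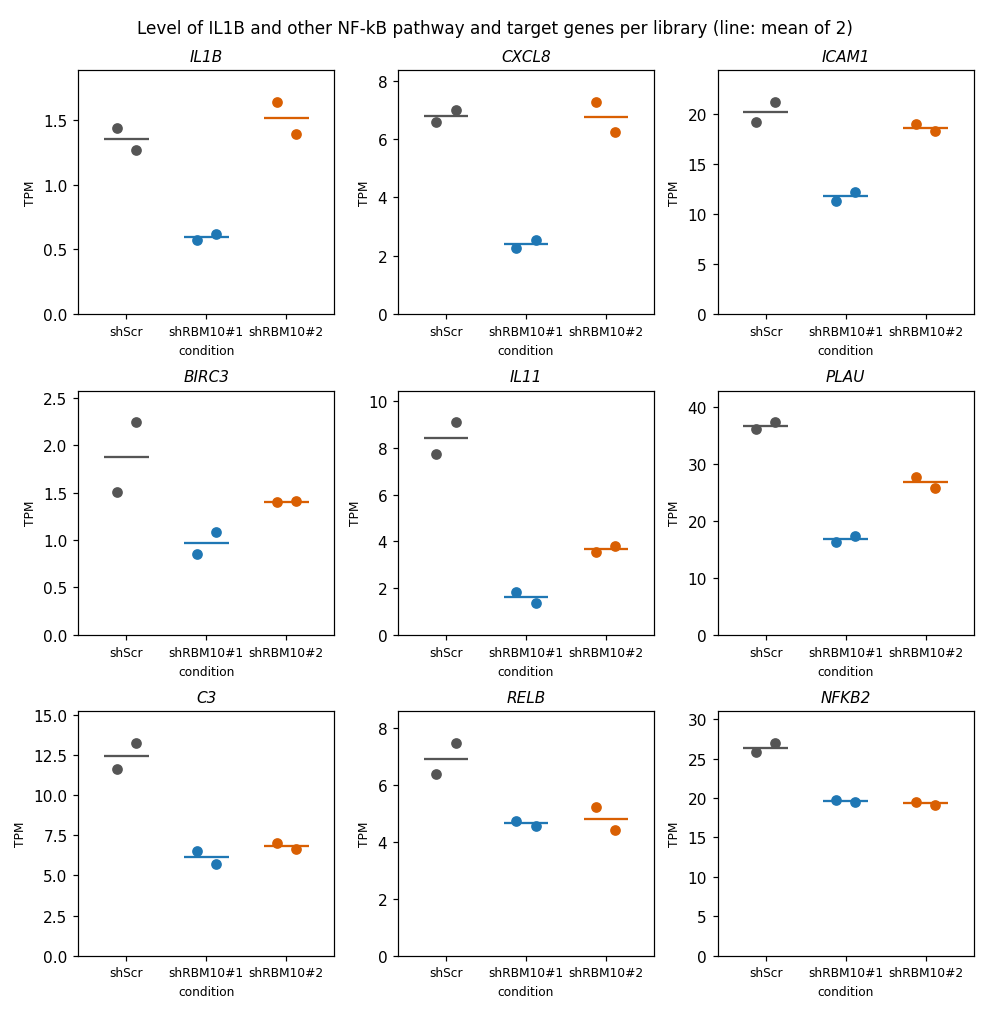
Level in TPM (vertical axes, from 0) of IL1B and 8 other NF-kB pathway and target genes in each library by condition (horizontal axes). Points are libraries and lines are means of 2. IL1B and CXCL8 are low in the shRBM10#1 libraries alone. ICAM1, BIRC3, IL11, PLAU, C3, RELB and NFKB2 are lower than shScr in all 4 KD libraries, though ICAM1 and BIRC3 were called lower with shRBM10#1 alone.

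The genes whose levels ran most like the mean of the 6 tested genes over the 6 libraries were ZNF720 (Pearson r = 0.985), PSAPL1 (r = 0.982) and TMEM182 (r = 0.982), each with standardized log2 CPM. The 6 tested genes did not all run together, with r from -0.788 (NFKBIA and LIF) to 0.92 (TNFAIP3 and LIF), so their mean is not the course of each. The 6 libraries share conditions, and these 3 are the top of all genes tested, so the values describe likeness to that mean alone.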

How the data were processed

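The authors quantified RefSeq isoforms per library and deposited expected counts, TPM, FPKM and each isoform's percent of its gene. The submitters' processing notes name STAR 2.4, RSEM 1.2.29, edgeR and hg19, and the strand protocol is not given in the sources used here. The deposited FPKM values were not used for any result. The deposited percent values were used for isoform shares.

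Expected counts and TPM were summed per gene, the counts were rounded, and 14217 genes were tested with edgeR 4.0.16 (R 4.3.3; TMM, filterByExpr, quasi-likelihood, all 6 libraries, Benjamini-Hochberg FDR below 0.05, two-sided). For the pooled comparison, the KD libraries formed 1 group. The study's own edgeR criteria for isoforms also ask for a log2 FC beyond 1, which was an alternative here. DESeq2 1.42.0 and limma 3.58.1 (log2(TPM + 1), mean TPM of at least 1) were also alternatives. The SE of an edgeR log2 FC was derived as its absolute value over the square root of the quasi-likelihood F statistic. The 95% intervals of log2 FC use that SE and a t quantile. Exact binomial intervals (95%) came from SciPy 1.17.1. Fits were tested on simulated data. Replicates differed by more than sampling noise (chi-square per degree of freedom 3.24 to 12.5).

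The 9 genes, the lists and the motif were chosen with earlier results of these data known. Named from other lists were genes with an FDR below 0.05 with both shRNAs in 1 direction (at most 4 per list), or with a log2 FC beyond 1 and an FDR below 0.05 with either (at most 3), and the 3 most alike genes. NFKBIE, ZFP36 and ZC3H12A each stand in 2 lists. Fibroblast and endothelial markers summed to 3.46 to 4.71 TPM. Promoter coordinates are GRCh38.p14 and were not converted.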

Additional observations from a re-analysis of the deposited data

Results flagged for a closer look

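A test of the difference between the effects of the 2 shRNAs (edgeR, shRBM10#2 against shRBM10#1) flagged 9 of the genes named above. IL1B was higher with shRBM10#2 by a log2 FC of 1.31 (FDR = 0.0121). CXCL8 was higher by 1.45 (FDR = 0.000146), IL11 by 1.18 (FDR = 0.000493), PLAU by 0.632 (FDR = 0.000426), ICAM1 by 0.627 (FDR = 0.000287) and BIRC3 by 0.58 (FDR = 0.0258). The log2 FC was negative for RBM10 (-1.11, FDR = 3.65e-06), for IRAK1 (-0.239, FDR = 0.0385) and for OAS2 (-1.57, FDR = 0.0195), which were lower with shRBM10#2. With 1 library left out, the difference was no longer called for IL1B (FDR up to 0.105), BIRC3 (up to 0.124), IRAK1 (up to 0.314) and OAS2 (up to 0.162). Each of these 4 lost its call without shRBM10#2 library 1 or library 2. IL1B, BIRC3 and IRAK1 lost it also without shRBM10#1 library 1, and OAS2 without shRBM10#1 library 2. Among the 14217 genes tested, 25.5% were called in this comparison, so a difference between the shRNAs was common. Some of the 9 were named for a log2 FC beyond 1 with either shRNA, and ICAM1 and BIRC3 after their values were seen. That choice favors a difference, so the number flagged is not compared with this share. The part of off-target effects of either shRNA was not tested.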

How the results depend on the processing

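LIF and TNFAIP3 kept a negative log2 FC against shScr with both shRNAs in every alternative run, and NFKBIA a positive one. The 9 genes gave 3, 3, 1 and 2 calls with shRBM10#1, with shRBM10#2, between the shRNAs and for both KD conditions as 1 group. The calls with shRBM10#1 ranged from 2 to 4 over all alternatives. The calls with shRBM10#2 fell to 0 when a log2 FC beyond 1 was also asked for, and ranged from 1 to 3 with each library left out. Between the shRNAs they were 0 with DESeq2, where IL1B had no adjusted p (log2 FC 1.31, unadjusted p = 0.00612), and 0 to 1 with each library left out. For the pooled comparison they were 0 with a log2 FC beyond 1, 3 with 1 coefficient per condition, where NFKBIA had an FDR of 0.0311, 1 with limma on TPM, which tested fewer of the genes, and 0 to 2 with each library left out. Same-numbered libraries did not deviate together across genes (correlations -0.0871 to -0.0323). The labels do not say whether they were paired, and these correlations cannot decide it. With the replicate block the pooled calls were 1, since TNFAIP3 had an FDR of 0.094, and IL1B with shRBM10#1 had an FDR of 0.0694. The sign of uncalled values turned with single libraries left out: CXCL2 ranged from -1.88 to 0.284 with shRBM10#1, from -0.18 to 0.931 with shRBM10#2 and from -0.2 to 0.546 pooled, CXCL1 from -0.04 to 0.637 with shRBM10#2 and CXCL8 from -0.063 to 0.152 with shRBM10#2. Between the shRNAs, NFKBIA ranged from -0.0192 to 0.283, LIF from -0.0239 to 0.155 and RELB from -0.104 to 0.134. CXCL8 was -0.00838 with shRBM10#2 by limma, and the chemokine sum was 0.0734 between the shRNAs, against -0.22 for CXCL1. The cause was not tested. Genes called overall were 1996, 3685, 3628 and 230. They were 267, 185, 169 and 56 with a log2 FC beyond 1 and 942, 1847, 1507 and 164 with limma, where the median log2 FC of all genes was -0.0702 and -0.0497 with the 2 shRNAs. The pooled count was 718 with DESeq2, 52 with the block and 2610 with 1 coefficient per condition. With each library left out, the counts ranged from 985 to 2626, 954 to 4566, 918 to 3736 and 0 to 416. IL6, IL1A and CXCL3 did not pass the main filter. Without it, 0 of the 3 were called by edgeR in any comparison, and 1, IL1A, had an unadjusted p below 0.05 with shRBM10#1 (0.0341) and pooled (0.0326).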
